A study of Mus musculus with 8 samples.

Results

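The genes described here differed in the same direction between the 2 libraries of the mouse tumour line PL1 and between the 2 libraries of the line PLA4. They were chosen from the deposited expected counts, by setting the library PL1B (PL1 replicate 2) over PL1A (PL1 replicate 1) and the library PLA4A (PLA4 replicate 1) over PLA4B (PLA4 replicate 2), always within a line. A gene was a member when both differences were over 2-fold and pointed the same way. Of 18648 genes measured, 1127 were members, 903 of them higher and 224 lower in PL1B and PLA4A. Another 4071 genes were over 2-fold apart in one line only, and 578 were over 2-fold apart in both lines in opposite directions. Which library stood on which side was itself read from these values, and each line has 1 library on a side. Counts, differences and folds are therefore descriptions without replicate error, and no test was made on them. In the line PL12, PL12B (replicate 2) over PL12A (replicate 1), and in the line PLA, HHPLAB (replicate 2) over HHPLAA (replicate 1), served as background for how far libraries of one line can lie apart.

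All 8 libraries are bulk RNA-seq of cell lines from mice engineered to develop squamous cell carcinoma of the lung, in a study of the loss of ACKR3, a receptor that takes up the chemokine CXCL12 without signalling through G proteins. The groups are the lines PL1, PLA4, PL12 and PLA, each with a replicate 1 and a replicate 2, and the labels give no treatment, time, age or engineered allele for any of them. The labels do not spell out the letters of the names, and they do not say whether a line is 1 clone or whether its 2 libraries came from separate cultures. RNA was taken with an RNeasy column kit, copied to cDNA with the SMARTer PCR method and made into libraries with Nextera XT.

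Totals ran from 48857960 counts in PL12A to 142458281 in PLA4B. PL1B and PL1A held 107042196 and 88993934 counts, and PLA4A and PLA4B held 132170441 and 142458281. Between 12016 and 12507 genes reached 1 CPM (counts scaled to the size of the library, after TMM scaling), and 3 counts, used as a floor, correspond to 0.0208 to 0.0614 CPM. Mitochondrial genes took 2.00% and 1.55% of counts in PL1B and PL1A, and 2.47% and 2.84% in PLA4A and PLA4B. Both libraries of PL1 and both of PLA4 fell with their own line for Ackr3, Xist and Ddx3y. Of 11 genes read as line checks, 2 were over 2-fold lower in PL1B, against 6.32% of all genes. In PLA4A 1 was over 2-fold higher, against 12.7%. Ackr3 stood at 33.2 CPM in PL1B and 86.3 CPM in PL1A, and at 0.387 CPM in PLA4A and 0.228 CPM in PLA4B. Xist, the RNA of the inactive X chromosome, stood at 208 CPM in PLA4A and 385 CPM in PLA4B and under 0.1 CPM in both PL1 libraries. The Y-linked helicase gene Ddx3y had 86.1 CPM in PL1B and 78.8 CPM in PL1A and under 0.1 CPM in both PLA4 libraries. Trp63, which encodes the squamous lineage factor p63, was close in all 4, with 373 CPM in PL1B and 381 CPM in PL1A and 306 CPM in PLA4A and 386 CPM in PLA4B.

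Several of the gene groups below act together in epithelial tumours. Interferons bind receptors that activate transcription factors, among them IRF9, which bind an interferon-stimulated response element (ISRE) in the promoters of antiviral genes, while interferon gamma also raises GTPases of the guanylate-binding and immunity-related families and the genes that load peptides on MHC class I. Collagen chains are folded in the endoplasmic reticulum with dedicated chaperones before they are secreted and cross-linked, and vimentin and the ZEB and SNAI factors are used as marks of epithelial cells that take on mesenchymal features. Squamous carcinoma cells are recognised by p63, basal keratins and desmosomal proteins.

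The lines PL1 and PLA4 stood apart from the background lines in how many genes separated their libraries. In PL1, 2429 genes (13.0%) were over 2-fold higher and 1178 (6.32%) over 2-fold lower in PL1B, and in PLA4, 2373 (12.7%) were higher and 1501 (8.05%) lower in PLA4A. In PL12, 1151 genes (6.17%) were higher and 490 (2.63%) lower in PL12B, and in PLA 417 (2.24%) were higher and 351 (1.88%) lower in HHPLAB. Differences are given as log2 of CPM with 2 counts added, and folds as ratios of CPM. The shares were smaller in all 4 lines among the 10519 genes whose mean over the 4 PL1 and PLA4 libraries reached 5 CPM. There, 5.07% were higher and 3.18% lower in PL1, 6.22% higher and 3.34% lower in PLA4, 0.390% higher and 0.143% lower in PL12, and 0.0190% higher and 0.0856% lower in PLA. The SD of the log2 difference across these genes was 0.77 in PL1, 0.80 in PLA4, 0.26 in PL12 and 0.11 in PLA.

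The sharing between PL1 and PLA4 was partial. The 903 genes higher in both (4.84% of genes measured) were 37.2% of those higher in PL1B and 38.1% of those higher in PLA4A. The 224 genes lower in both (1.20%) were 19.0% of the PL1 list and 14.9% of the PLA4 list. In the opposite directions, 348 genes (1.87%) were higher in PL1 and lower in PLA4, which is 14.3% of the PL1 list and 23.2% of the PLA4 list, and 230 (1.23%) were lower in PL1 and higher in PLA4, 19.5% and 9.69% of those lists. Across all genes measured the PL1 and PLA4 differences had r = 0.20, and at a mean of at least 5 CPM r = 0.23, over genes that share their libraries and are not independent. The other 5 pairings of lines gave r between -0.17 and 0.01, with -0.17 for PL12 and PLA at a mean of at least 5 CPM. The sign of r depends on which library of a line is set on top. For PL1 and PLA4 this was read from the values, so only the sizes of r can be set side by side. Each library still resembled the other library of its line most. Correlations of log2 CPM were 0.978 within PL1 and 0.974 within PLA4, against 0.957 between PL1B and PLA4A and 0.967 between PL1A and PLA4B. Across the sides they were 0.962 between PL1A and PLA4A and 0.954 between PL1B and PLA4B. By this measure PLA4A lay closer to PL1A than to PL1B. These counts and shares describe how the members were chosen and support nothing further.

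**Figure D1:**
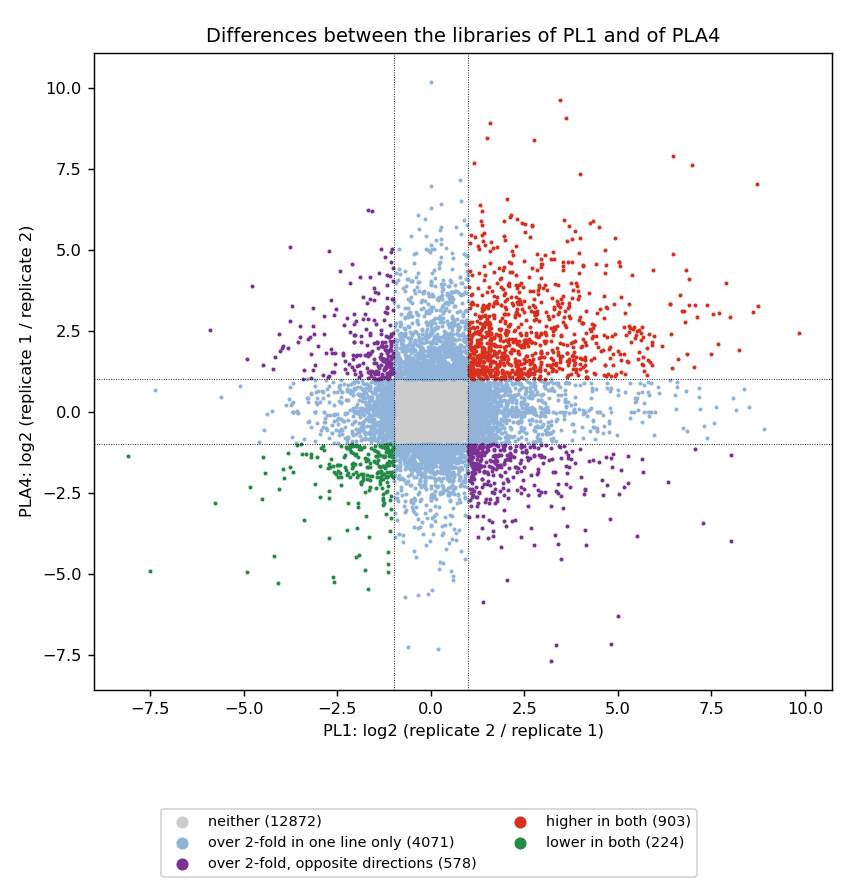
Each point is 1 of 18648 genes, with the log2 difference between the libraries of PL1 (replicate 2 over replicate 1) on the horizontal axis and that between the libraries of PLA4 (replicate 1 over replicate 2) on the vertical axis. Dotted lines mark 2-fold. The 903 genes higher in both lie in the upper right and the 224 lower in both in the lower left, while 4071 genes lie beyond 2-fold on 1 axis only.

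The members were mostly low in abundance and mostly protein coding. Among genes higher in both, 773 of 903 (85.6%) were protein coding, against 78.0% of all genes measured, and the median of the mean level was 1.44 CPM, against 11.6 CPM over all genes measured. Of the 903, 178 reached 5 CPM in both PL1B and PLA4A. For 89 of the 903, fewer than 2 of the other libraries reached the cut of the filter on low counts. Over all 18648 genes measured this held for 558. These 89 needed PL1B or PLA4A to pass, so their difference is not independent of the filter. Among genes lower in both, 162 of 224 (72.3%) were protein coding, the median level was 0.443 CPM, and 47 needed PL1A or PLA4B to pass the filter. At the threshold, Csf1, a macrophage growth factor, was just inside with log2 differences of 2.88 in PL1 and 1.00 in PLA4, and Cd82 just outside with 0.999 and 1.51. On the lower side Cav1, the caveolae protein, was just inside with -2.11 and -1.01, and Col17a1, the hemidesmosomal collagen, just outside with -1.38 and -0.996. With a minimum mean of 5 CPM the members were 207 higher and 41 lower, and in the deposited TPM 229 and 36.

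The largest shared differences were in genes of collagen folding and of the mesenchymal cytoskeleton. Serpinh1 encodes HSP47, the chaperone that procollagen needs to fold. It held 41.5 CPM in PL1B and 69.1 CPM in PLA4A, against 0.0805 CPM in PL1A and 0.512 CPM in PLA4B. In counts these were 4710 and 8932, against 7 and 74. The ratio was 515-fold in PL1 and 135-fold in PLA4. In the background lines Serpinh1 did not separate libraries but lines, at 47.2 CPM in PL12B and 45.1 CPM in PL12A and 0.0339 CPM in HHPLAB and 0.0650 CPM in HHPLAA.

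Col4a2, a chain of the basement membrane collagen, held 16.8 CPM in PL1B and 15.9 CPM in PLA4A, against 0.115 CPM in PL1A and 0.0623 CPM in PLA4B. It was 146-fold higher in PL1 and 255-fold higher in PLA4, and stood at 29.9 CPM in PL12B and 27.3 CPM in PL12A and 0.330 CPM in HHPLAB and 0.341 CPM in HHPLAA. Its partner chain Col4a1, transcribed from the shared promoter region in the other direction, held 31.6 CPM in PL1B against 0.679 CPM in PL1A, and 22.3 CPM in PLA4A against 3.95 CPM in PLA4B. Both chains thus lay on the same side in both lines, with Col4a2 near the floor in the low libraries.

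Vim encodes the intermediate filament vimentin. It held 40.2 CPM in PL1B and 61.6 CPM in PLA4A, against 0.437 CPM in PL1A and 0.242 CPM in PLA4B. That was 92.0-fold higher in PL1 and 254-fold higher in PLA4. The PL12 libraries lay at 11 CPM in PL12B and 10.1 CPM in PL12A, and those of PLA at 0.0339 CPM in HHPLAB and 0.0244 CPM in HHPLAA. For Serpinh1, Col4a2 and Vim alike, the PL1 and PLA4 libraries fell into a high and a near-silent pair, while the 2 libraries of PL12 and of PLA lay together. In bulk RNA, fewer cells of a kind and less RNA per cell cannot be told apart.

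This form was seen in 13 of the 903 genes higher in both, and in 13 of all 18648 measured. They were at 5 CPM or more in PL1B and PLA4A and under 1 CPM in PL1A and PLA4B. Besides these 3 they were Aebp1 and Efemp2, which encode collagen- and elastin-associated matrix proteins, Loxl2, a lysyl oxidase that cross-links collagen, Fkbp10, a prolyl isomerase that assists collagen folding, Ctsz, a lysosomal protease, Cldn3, a tight junction claudin, Akap12, a kinase-anchoring scaffold, Ptges, a prostaglandin E synthase, Cavin2, a coat protein of caveolae, and Gm4070. In the background lines 8 of these reached 5 CPM in both PL12 libraries, 6 in both PLA libraries and 4 in both lines, and 3 were under 1 CPM in all 4 of those libraries. The shares of all genes at those levels were not counted. The reverse form, high in PL1A and PLA4B, was seen in 1 of the 224 genes lower in both.

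Aebp1, one of the genes low in the background lines, held 17.6 CPM in PL1B and 5.90 CPM in PLA4A, against 0.138 CPM in PL1A and 0.270 CPM in PLA4B, and 0.0735 to 0.301 CPM in the 4 background libraries. Loxl2 held 6.16 CPM in PL1B against 0.380 CPM in PL1A and 10.4 CPM in PLA4A against 0.332 CPM in PLA4B, with 22.3 CPM in HHPLAB and 22.6 CPM in HHPLAA and 0.827 CPM in PL12B and 0.225 CPM in PL12A. Cldn3 held 9.95 CPM in PL1B against 0.794 CPM in PL1A and 98.3 CPM in PLA4A against 0.166 CPM in PLA4B, 12.5-fold and 591-fold higher, and was high in both background lines, at 398 CPM in PL12B and 318 CPM in PL12A and 119 CPM in HHPLAB and 111 CPM in HHPLAA. Thus the near-silent level of Cldn3 was seen only in PL1A and PLA4B among the 8 libraries, whereas the high level of Aebp1 was seen only in PL1B and PLA4A.

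Promoters of 3 of these genes are printed because they carry the largest shared differences, from the RefSeq table for GRCm38.p6, which holds 250 bases before and 50 after each listed transcript start, 5′ to 3′ on the gene's strand. Capitals mark CpG dinucleotides, the sites of DNA methylation in mammals, which these files do not measure. Serpinh1 is on chr7:99353190-99353489, minus strand, Col4a2 on chr8:11312555-11312854, plus strand, and Vim on chr2:13574061-13574360, plus strand.
Serpinh1: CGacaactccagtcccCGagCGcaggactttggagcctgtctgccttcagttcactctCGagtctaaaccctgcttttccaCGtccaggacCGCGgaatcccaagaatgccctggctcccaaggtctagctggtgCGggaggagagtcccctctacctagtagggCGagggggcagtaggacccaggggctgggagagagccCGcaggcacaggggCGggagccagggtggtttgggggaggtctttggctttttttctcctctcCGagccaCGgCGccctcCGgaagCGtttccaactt
Col4a2: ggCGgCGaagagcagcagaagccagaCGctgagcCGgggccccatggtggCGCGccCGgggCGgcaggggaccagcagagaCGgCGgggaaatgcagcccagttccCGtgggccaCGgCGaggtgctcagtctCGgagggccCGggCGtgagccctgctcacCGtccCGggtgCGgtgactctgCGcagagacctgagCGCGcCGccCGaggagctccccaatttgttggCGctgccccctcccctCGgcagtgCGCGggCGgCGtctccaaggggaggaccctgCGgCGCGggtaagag
Vim: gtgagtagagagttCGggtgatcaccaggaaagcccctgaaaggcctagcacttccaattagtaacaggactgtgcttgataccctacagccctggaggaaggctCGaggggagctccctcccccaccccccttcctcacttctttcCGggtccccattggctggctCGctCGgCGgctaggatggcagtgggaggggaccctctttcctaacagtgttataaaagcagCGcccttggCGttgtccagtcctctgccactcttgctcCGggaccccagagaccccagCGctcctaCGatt
The windows hold 16, 33 and 11 CpGs in that order, which is 0.55, 0.82 and 0.42 of the number their base composition would give. By the same ratio the median window of all genes with at least 5 CPM stood at 0.779, that of genes higher in both at 0.411 and that of genes lower in both at 0.617. Genes higher in one line only stood between, at 0.617 for PL1 and 0.550 for PLA4.

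Among the other genes named by rank on this side, Wfdc18, a small secreted protein of the WAP family, held 62.9 CPM in PL1B against 1.48 CPM in PL1A and 37.8 CPM in PLA4A against 2.00 CPM in PLA4B. Spp1, which encodes the matrix protein osteopontin, held 71.2 CPM in PL1B against 5.20 CPM in PL1A and 43.4 CPM in PLA4A against 1.05 CPM in PLA4B, and was near silent in PLA, at 0.178 CPM in HHPLAB and 0.122 CPM in HHPLAA. Lgals1, which encodes galectin-1, held 42.2 CPM in PL1B against 2.92 CPM in PL1A and 8.04 CPM in PLA4A against 0.152 CPM in PLA4B. The leukocyte adhesion molecule Vcam1 held 11.4 CPM in PL1B against 0.759 CPM in PL1A and 20.8 CPM in PLA4A against 1.29 CPM in PLA4B, 15-fold and 16-fold higher. All 15 genes named by rank on this side separated the libraries of PL1 and PLA4 by at least 10-fold, while in PL12 and PLA all but 2 of them stayed within 2-fold, the exceptions being Loxl2 and Fkbp10 in PL12, both under 1 CPM there.

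**Figure D2:**
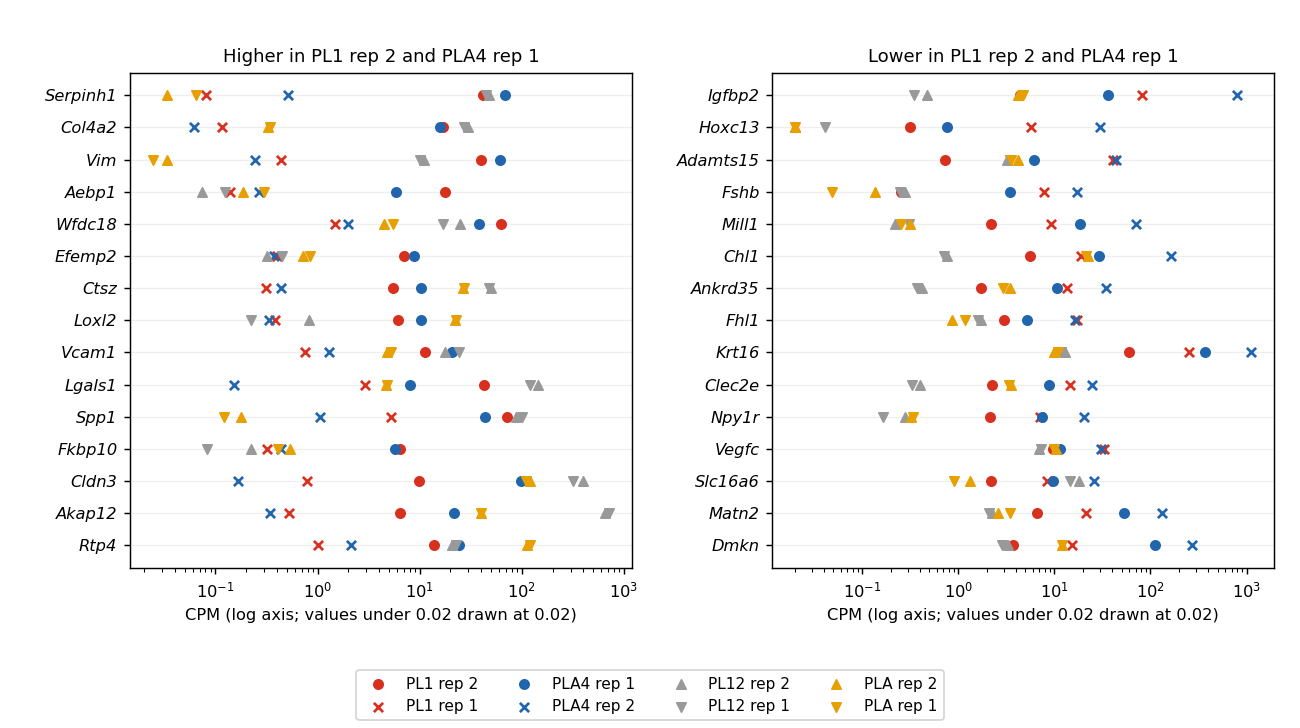
Level in CPM (log axis) of the 15 genes with the largest shared difference in each direction, in every library. Filled circles are PL1B and PLA4A, crosses are PL1A and PLA4B, and triangles are the PL12 and PLA libraries. Circles and crosses of a line lie far apart in every row, whereas the triangles of a line mostly overlap.

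Genes induced by interferon formed the list with the most shared members. Of 38 interferon-stimulated genes measured, 25 were over 2-fold higher in PL1B and 29 in PLA4A, 22 were higher in both, and none was over 2-fold lower in either line, against 13.0% and 12.7% of all genes that were higher and 4.84% that were higher in both. The 22 became 14 at a mean of 5 CPM and 18 in deposited TPM. The median log2 difference was 1.90 in PL1 and 2.12 in PLA4, beside medians of 0 over all genes, and -0.24 in PL12 and -0.06 in PLA. All 38 differences were above 0 in PL1 and in PLA4. With total counts in place of TMM, 37 of 38 were above 0 in PLA4.

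Rsad2, which encodes the antiviral enzyme viperin, held 14.2 CPM in PL1B against 0.150 CPM in PL1A, 95-fold higher, and 2.52 CPM in PLA4A against 0.235 CPM in PLA4B, 10.7-fold higher. Ifit1, which binds viral RNA, held 23.5 CPM in PL1B against 2.76 CPM in PL1A and 81.7 CPM in PLA4A against 9.72 CPM in PLA4B, 8.49-fold and 8.4-fold higher. Irf7, the transcription factor that amplifies type I interferon, held 37.9 CPM in PL1B against 7.86 CPM in PL1A and 72.2 CPM in PLA4A against 3.87 CPM in PLA4B. For these 3 genes the high and low libraries of PL1 and PLA4 did not overlap. Their separation within each line was fixed by how members were chosen. How many of all genes separate in this way was not counted.

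Trim30a, of the TRIM family, held 5.21 CPM in PL1B against 0.184 CPM in PL1A and 3.62 CPM in PLA4A against 0.367 CPM in PLA4B. The oligoadenylate synthetase gene Oas1g, one of several close copies among which reads can be split, held 3.03 CPM in PL1B against 0.414 CPM in PL1A and 1.28 CPM in PLA4A against 0.159 CPM in PLA4B. Rtp4 held 13.9 CPM in PL1B against 1.01 CPM in PL1A and 24.1 CPM in PLA4A against 2.12 CPM in PLA4B. All 3 genes were lowest in PL1A and PLA4B and highest in the PLA line. Cmpk2, a mitochondrial nucleotide kinase, held 2.87 CPM in PL1B against 0.173 CPM in PL1A and 2.67 CPM in PLA4A against 0.166 CPM in PLA4B. Oasl2 held 10.5 CPM in PL1B against 0.990 CPM in PL1A and 28.7 CPM in PLA4A against 1.88 CPM in PLA4B. Not every gene of the pathway was apart. The double-stranded RNA sensor Eif2ak2 held 51.1 CPM in PL1B and 39.8 CPM in PL1A and 49.0 CPM in PLA4A and 44.0 CPM in PLA4B.

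Neither high library reached the level of the PLA line. Summed over the 38 genes, PL1B held 1273 CPM and PLA4A held 1708 CPM, against 712 CPM in PL1A and 552 CPM in PLA4B. PL12B held 1163 CPM and PL12A 1343 CPM, and HHPLAB held 4247 CPM and HHPLAA 4374 CPM. The low libraries were the lowest of the 8, below both PL12 libraries.

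**Figure D3:**
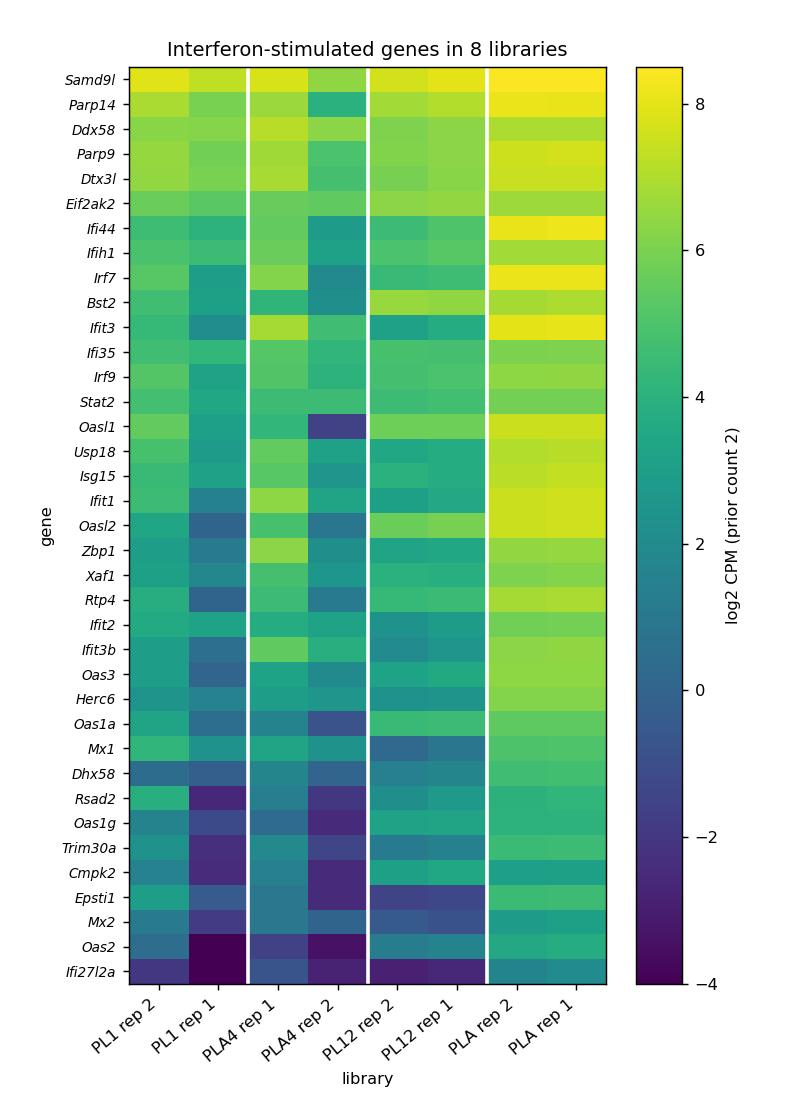
Log2 CPM of 37 of the interferon-stimulated genes (rows, ordered by mean) in the 8 libraries (columns). PL1B and PLA4A are brighter than the other library of their line in every row, the PL12 libraries are alike, and the PLA libraries are the brightest in most rows.

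Promoters of 4 of these genes are printed. They were taken in order of shared difference from the list members higher in both whose window holds the ISRE letters. A match in each was therefore fixed by the choice. Windows are from RefSeq, GRCm38.p6, of the same extent as above, and capitals mark GAAA, any 2 bases, then GAAA, or the reverse complement. Rsad2 is on chr12:26456403-26456702, minus strand, Trim30a on chr7:104465144-104465443, minus strand, Ifit1 on chr19:34640639-34640938, plus strand, and Oas1g on chr5:120887564-120887863, minus strand.
Rsad2: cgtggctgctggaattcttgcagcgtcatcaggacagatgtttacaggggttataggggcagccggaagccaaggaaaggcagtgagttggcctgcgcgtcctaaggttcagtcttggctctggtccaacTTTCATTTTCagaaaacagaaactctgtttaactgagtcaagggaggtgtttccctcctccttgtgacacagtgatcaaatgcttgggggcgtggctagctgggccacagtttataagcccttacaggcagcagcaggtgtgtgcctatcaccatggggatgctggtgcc
Trim30a: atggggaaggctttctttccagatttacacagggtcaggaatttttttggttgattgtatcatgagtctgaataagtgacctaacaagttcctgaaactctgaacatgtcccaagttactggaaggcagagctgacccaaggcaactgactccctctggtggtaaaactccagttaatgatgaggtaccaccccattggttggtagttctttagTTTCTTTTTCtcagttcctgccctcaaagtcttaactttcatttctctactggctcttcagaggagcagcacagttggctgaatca
Ifit1: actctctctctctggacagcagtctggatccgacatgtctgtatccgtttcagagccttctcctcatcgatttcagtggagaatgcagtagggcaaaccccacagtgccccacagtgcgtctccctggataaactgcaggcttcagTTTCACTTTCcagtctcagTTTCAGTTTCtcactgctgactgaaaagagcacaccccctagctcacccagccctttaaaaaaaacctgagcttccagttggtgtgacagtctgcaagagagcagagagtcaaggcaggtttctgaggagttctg
Oas1g: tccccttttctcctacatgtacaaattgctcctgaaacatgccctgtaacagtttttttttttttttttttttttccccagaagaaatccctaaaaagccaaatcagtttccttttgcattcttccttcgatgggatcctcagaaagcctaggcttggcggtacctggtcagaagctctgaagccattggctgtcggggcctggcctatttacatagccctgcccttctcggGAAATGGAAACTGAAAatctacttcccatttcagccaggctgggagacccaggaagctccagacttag
The match starts 120 bases before the listed transcript start in Rsad2 and 36 bases before it in Trim30a. Ifit1 has 2 matches, 104 and 85 bases before the start, and Oas1g has 2 that overlap, 18 and 12 bases before it. These letters were searched on both strands and occur in 3.44% of all 32851 windows in the table and in 3.03% of the windows of genes measured. Among windows of genes higher in both, 65 of 796 (8.17%) held them, and outside the interferon-stimulated list 54 of 777 (6.95%) did. Within that list the share was 57.9% (11 of 19 windows) for members higher in both and 36.4% (4 of 11) for the rest. Windows of genes lower in both held them in 3.35%, those of genes higher in PL1 only in 2.35%, and those of genes higher in PLA4 only in 5.09%. Of 902 symbols higher in both, 616 had a window, and of 224 lower in both, 134. A match is a string of letters and not a measured binding site.

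The other motifs of the same search were less uneven among genes higher in both. The interferon gamma-activated site TTCNNNGAA was in 8.42% of their windows against 6.95% of those of genes measured, the kappaB site (GGGA, any 2 bases, then TTCC) in 1.88% against 1.51%, the TEAD site GGAATG in 16.2% against 12.7%, and the CCAAT box in 34.3% against 37.8%. The AP-1 site TGANTCA was in 10.4% against 6.19%, and in 14.5% (26 of 179 windows) of those of genes lower in both. Among genes with at least 5 CPM, AP-1 letters were in 13.0% of windows of genes higher in both, against 5.13% of all. For genes lower in both the share there was 31.0% (13 of 42 windows, from 32 genes).

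Genes driven by interferon gamma and IRF1 lay on the same side. Of 20 measured, 15 were higher in PL1B and 16 in PLA4A, 13 in both, with none over 2-fold lower and medians of 1.5 and 2.33. Of all genes, 13.0%, 12.7% and 4.84% were higher in PL1B, in PLA4A and in both. The 13 became 4 at a mean of 5 CPM and 5 in deposited TPM. The GTPase Irgm1 held 80.3 CPM in PL1B against 37.1 CPM in PL1A and 111 CPM in PLA4A against 11.1 CPM in PLA4B. Tgtp1, a GTPase with the near-identical copy Tgtp2, held 1.93 CPM in PL1B against 0.230 CPM in PL1A and 5.84 CPM in PLA4A against 0.228 CPM in PLA4B. The chemokine Cxcl10 held 5.10 CPM in PL1B against 0.472 CPM in PL1A and 3.37 CPM in PLA4A against 0.852 CPM in PLA4B. The factor Irf1 was apart in PLA4, with 137 CPM in PLA4A against 33.2 CPM in PLA4B, and less so in PL1, with 80.5 CPM in PL1B against 61.9 CPM in PL1A. Iigp1 and Irf8 were past 2-fold in both at levels under 1 CPM in all 4 libraries.

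MHC class I presentation followed with smaller differences. Of 20 genes, 9 were higher in PL1B, 14 in PLA4A and 9 in both, against 13.0%, 12.7% and 4.84% of all genes, with medians of 0.89 and 1.46 and none over 2-fold lower. The 9 in both became 4 at a mean of 5 CPM and 5 in deposited TPM. The heavy chain gene H2-K1 held 116 CPM in PL1B against 23 CPM in PL1A and 48.8 CPM in PLA4A against 13.5 CPM in PLA4B, and 214 CPM in PL12B and 227 CPM in PL12A and 809 CPM in HHPLAB and 852 CPM in HHPLAA. The light chain gene B2m held 408 CPM in PL1B against 184 CPM in PL1A and 571 CPM in PLA4A against 283 CPM in PLA4B. The immunoproteasome subunit Psmb8 held 7.37 CPM in PL1B against 1.66 CPM in PL1A and 7.73 CPM in PLA4A against 0.305 CPM in PLA4B, 4.45-fold and 25.4-fold higher. Calr, a chaperone of the same pathway, was level, with 981 CPM in PL1B and 997 CPM in PL1A and 617 CPM in PLA4A and 660 CPM in PLA4B. The H2-Q genes are close copies of each other, and reads can be split between them. Of 7 MHC class II genes measured, 2 were higher in both, Cd74 and Ctss, each under 1 CPM in all 4 libraries.

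Acute-phase and antimicrobial genes had a median log2 difference of 3.28 in PL1 and 0.99 in PLA4, and of 1.27 and 0.26 in deposited TPM. Of 18 genes, 14 were higher and 2 lower in PL1B, against 13.0% and 6.32% of all genes, and 9 were higher and 2 lower in PLA4A, against 12.7% and 8.05%. In both lines 9 were higher, against 4.84% of all genes, or 4 at a mean of 5 CPM and 3 in TPM. The calprotectin subunit S100a9 was lower in both, with log2 differences of -1.12 in PL1 and -1.52 in PLA4. Ltf, which encodes the iron-binding protein lactoferrin, held 1030 CPM in PL1B against 4.95 CPM in PL1A and 552 CPM in PLA4A against 67.0 CPM in PLA4B, 208-fold and 8.24-fold higher. Lcn2, the siderophore-binding lipocalin, was apart in PL1 only, with 928 CPM in PL1B against 5.90 CPM in PL1A, beside 22 CPM in PLA4A against 29.8 CPM in PLA4B. The secretory protein gene Wfdc2 held 172 CPM in PL1B against 68.6 CPM in PL1A and 397 CPM in PLA4A against 6.76 CPM in PLA4B. The immunoglobulin transporter gene Pigr held 26.5 CPM in PL1B against 0.184 CPM in PL1A and 8.75 CPM in PLA4A against 3.37 CPM in PLA4B.

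Of 29 NF-kB targets and cytokines, 13 were higher and 1 lower in PL1B, 8 were higher and 3 lower in PLA4A, and 6 were higher in both. Of all genes, 13.0% were higher and 6.32% lower in PL1B, 12.7% higher and 8.05% lower in PLA4A, and 4.84% higher in both. The 6 were Vcam1, Csf3, Ccl20, Tnfaip2, Csf1 and Lif. Csf3, which encodes the granulocyte growth factor G-CSF, held 37.1 CPM in PL1B against 1.85 CPM in PL1A and 2.70 CPM in PLA4A against 0.395 CPM in PLA4B, and 190 CPM in PL12B and 160 CPM in PL12A. Lif, a cytokine of the interleukin-6 family, held 561 CPM in PL1B against 195 CPM in PL1A and 102 CPM in PLA4A against 42.1 CPM in PLA4B. The feedback inhibitor of NF-kB, Nfkbia, was level, with 124 CPM in PL1B and 127 CPM in PL1A and 83.8 CPM in PLA4A and 75.2 CPM in PLA4B. Il6 was apart in PL1 only, with 10.9 CPM in PL1B against 1 count in PL1A, a 947-fold ratio with a 95% exact binomial interval of 170 to 37432 that covers counting error only.

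Matrix genes were apart in PL1 in both directions and in PLA4 mostly higher in PLA4A. Summed over the list, PL1B held less than PL1A, 6584 CPM against 16305 CPM. The PLA4 libraries were close, with 16559 CPM in PLA4A and 16131 CPM in PLA4B. Of 30 measured, 16 were higher and 10 lower in PL1B, 11 were higher and 2 lower in PLA4A, and 10 were higher in both, against 13.0% and 6.32%, 12.7% and 8.05%, and 4.84% of all genes. The 10 became 5 at a mean of 5 CPM and 3 in deposited TPM, in which 3 were higher in PLA4A. Col1a1, a chain of the fibrillar collagen of type I, held 254 CPM in PL1B against 0.575 CPM in PL1A, 441-fold higher, and 4.36 CPM in PLA4A against 0.436 CPM in PLA4B, 9.99-fold higher. Its partner chain Col1a2 stayed under 1 CPM in all 4 libraries. Lox, a lysyl oxidase, held 18.3 CPM in PL1B against 0.161 CPM in PL1A and 0.952 CPM in PLA4A against 0.0623 CPM in PLA4B. The fibrillin gene Fbn1 held 14.0 CPM in PL1B against 0.104 CPM in PL1A and 1.10 CPM in PLA4A against 0.305 CPM in PLA4B.

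Among 21 genes of the epithelial-mesenchymal transition, 9 were higher in PL1B and 9 in PLA4A, and they were the same 9, with none lower, against 13.0% and 12.7% of all genes higher in each line and 4.84% in both. At a mean of 5 CPM 2 were higher in both. In deposited TPM 6 were higher in PL1B, 3 in PLA4A and 2 in both. The 9 are the mesenchymal genes Vim, Zeb1, Zeb2, Snai1, Twist1, Twist2, Prrx1 and Cdh2 and the epithelial claudin gene Cldn7. Zeb1, a repressor of epithelial genes, held 2.20 CPM in PL1B against 0.644 CPM in PL1A and 8.29 CPM in PLA4A against 0.762 CPM in PLA4B. Zeb2 held 11.2 CPM in PL1B against 1.24 CPM in PL1A and 2.45 CPM in PLA4A against 0.325 CPM in PLA4B. Prrx1, a mesenchymal homeobox gene, held 16.7 CPM in PL1B against 0 counts in PL1A, at least 484-fold higher against the floor of 3 counts in that library, but 0.116 CPM in PLA4A against 1 count in PLA4B. Twist1, Twist2, Snai1 and Cdh2 were likewise under 0.3 CPM in both PLA4 libraries.

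Cdh1 and Esrp1, epithelial genes of the same list, were close to level. Cdh1, which encodes E-cadherin, held 637 CPM in PL1B and 789 CPM in PL1A and 730 CPM in PLA4A and 703 CPM in PLA4B. The splicing regulator Esrp1 held 173 CPM in PL1B and 184 CPM in PL1A and 147 CPM in PLA4A and 148 CPM in PLA4B. Cldn7 held 201 CPM in PL1B against 90.6 CPM in PL1A and 155 CPM in PLA4A against 0.741 CPM in PLA4B, 2.22-fold and 210-fold higher. Vim and Cdh1 were thus both present in PL1B and PLA4A, and only Vim was near silent in the other library of each line.

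Markers of other cells that could have been in a culture were read beside these results. Of 18 fibroblast markers, 10 were under 1 CPM in all 8 libraries. Of 10 that passed the filter, 8 were higher in PL1B, against 13.0% of all genes. In PLA4A 4 were higher and 2 lower, against 12.7% and 8.05%. In both lines 4 were higher, Col1a1, Col1a2, Pdgfrb and Twist2, against 4.84% of all genes. Twist2 had 3 counts in PLA4A, the floor, against 0 in PLA4B. Pdgfrb had 0 counts in PL1A and PLA4B and at most 3 in the background libraries, so it passed the filter only through PL1B and PLA4A. Lum, Thy1, Mfap4, Dpt, Pi16 and Tcf21 were at or near 0 in all 8 libraries. Summed over the list, PL1B held 299 CPM, of which Col1a1 made up 254, against 8.83 CPM in PL1A, and PLA4A held 28.7 CPM against 19.7 CPM in PLA4B, with 1.16 to 2.10 CPM in the background libraries. Dcn, which encodes the fibroblast proteoglycan decorin, held 10.7 CPM in PL1B against 0.0230 CPM in PL1A, and 0.0387 CPM in PLA4A against 0.886 CPM in PLA4B. The part of fibroblasts in these differences was not tested.

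Leukocyte markers summed to 14.4 CPM in PL1B against 9.99 CPM in PL1A and to 20.3 CPM in PLA4A against 7.08 CPM in PLA4B. Of 20 leukocyte markers, 8 passed the filter. Of these, 4 were higher and 3 lower in PL1B, against 13.0% and 6.32% of all genes. In PLA4A 2 were higher and 1 lower, against 12.7% and 8.05%. In both lines 1, Cd68, was higher and 1, S100a9, was lower, against 4.84% and 1.20% of all genes. The defining leukocyte genes Ptprc, Adgre1, Cd3e and Tyrobp were at or near 0 in all 8 libraries. Cd68, a lysosomal protein abundant in macrophages, held 9.90 CPM in PL1B against 1.92 CPM in PL1A and 14.9 CPM in PLA4A against 3.57 CPM in PLA4B, and 7.11 to 29.0 CPM in the background libraries. The part of leukocytes in the interferon and MHC differences was not tested. Endothelial markers summed to 2.67 to 4.71 CPM in the 4 libraries. Markers of smooth muscle and pericytes summed to 74.4 CPM in PL1B against 196 CPM in PL1A and to 593 CPM in PLA4A against 767 CPM in PLA4B, nearly all of it Acta2, while Des was at or near 0. Of 7 measured, 3 were higher and 1 lower in PL1B, against 13.0% and 6.32% of all genes. In PLA4A 4 were higher, against 12.7%. In both lines 3 were higher, Cnn1, Notch3 and Rgs5, against 4.84%. Cnn1 held 0.220 CPM in PL1B against 0.0690 CPM in PL1A and 2.32 CPM in PLA4A against 0.0485 CPM in PLA4B. Rgs5 was at most 0.101 CPM in these libraries. Markers of alveolar, club and ciliated lung epithelium summed to 514 CPM in PL1B against 580 CPM in PL1A and to 533 CPM in PLA4A against 541 CPM in PLA4B. Of 12 measured, 6 were higher in PL1B, 6 were higher and 1 lower in PLA4A, and Nkx2-1, Hopx, Pdpn and Cyp2f2 were higher in both. These stand against 13.0%, 12.7% and 8.05%, and 4.84% of all genes. Cyp2f2, a club cell enzyme, held 2.11 CPM in PL1B against 3 counts in PL1A and 168 CPM in PLA4A against 27.7 CPM in PLA4B. The lung lineage factor Nkx2-1 was under 0.2 CPM in all 4 libraries. Markers of squamous tumour epithelium summed to 11135 CPM in PL1B against 19821 CPM in PL1A and to 22381 CPM in PLA4A against 20144 CPM in PLA4B, so the labelled cell type was present in all 4 libraries.

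Genes of the cell cycle were lower on the same side, by less than 2-fold for nearly all of them. All 30 genes of the G2 and M phases measured were below 0 in PL1 and in PLA4, with medians of -0.56 and -0.68. The medians over all genes were 0. Of the 30, 3 were over 2-fold lower in PLA4, against 8.05% of all genes, and none in PL1, against 6.32%. Scaled by total counts, 1 of the 30 was above 0 in PL1. In PL12 and PLA, 7 and 9 of the 30 were above 0, with medians of -0.14 and -0.02. The proliferation marker Mki67 held 321 CPM in PL1B against 567 CPM in PL1A, and 161 CPM in PLA4A against 310 CPM in PLA4B. The mitotic cyclin Ccnb1 held 128 CPM in PL1B against 220 CPM in PL1A and 85.2 CPM in PLA4A against 136 CPM in PLA4B. Of 34 S phase and replication genes, 4 were above 0 in each line, with medians of -0.32 and -0.47, and none was over 2-fold apart. By total counts, 7 were above 0 in PL1 and 1 in PLA4. The replication helicase subunit Mcm2 held 121 CPM in PL1B against 175 CPM in PL1A and 76.7 CPM in PLA4A against 126 CPM in PLA4B. Small differences below 0 were not particular to the cell cycle. Of 46 cytosolic ribosomal protein genes, 1 was above 0 in PL1 and 17 in PLA4, with medians of -0.19 and -0.12. Of 33 oxidative phosphorylation genes, 4 were above 0 in PL1 and 14 in PLA4. Of 16 heat shock genes, 4 were above 0 in PL1 and 7 in PLA4.

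The genes lower in PL1B and PLA4A included secreted and squamous proteins. Igfbp2, which binds insulin-like growth factors, held 4.44 CPM in PL1B against 81.9 CPM in PL1A, 18.4-fold lower, and 36.1 CPM in PLA4A against 796 CPM in PLA4B, 22.1-fold lower. Hoxc13, a homeobox factor of hair and nail keratinocytes, held 0.317 CPM in PL1B against 5.66 CPM in PL1A and 0.759 CPM in PLA4A against 30.2 CPM in PLA4B, and was at or near 0 in PL12 and PLA. Adamts15, a metalloprotease that cleaves matrix proteoglycans, held 0.732 CPM in PL1B against 40.6 CPM in PL1A and 6.09 CPM in PLA4A against 43.3 CPM in PLA4B. For these 3 genes PLA4B held the highest level of the 8 libraries.

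Krt16, the keratin of stressed and wounded epidermis, held 59.5 CPM in PL1B against 252 CPM in PL1A and 370 CPM in PLA4A against 1118 CPM in PLA4B, and 9.85 to 12.8 CPM in the background libraries. Mill1, an MHC class I-like gene, held 2.17 CPM in PL1B against 9.22 CPM in PL1A and 18.3 CPM in PLA4A against 69.9 CPM in PLA4B. The lymphatic growth factor gene Vegfc held 9.71 CPM in PL1B against 33.2 CPM in PL1A and 11.4 CPM in PLA4A against 30.7 CPM in PLA4B. Dmkn, which encodes the skin protein dermokine, held 3.73 CPM in PL1B against 15.1 CPM in PL1A and 111 CPM in PLA4A against 273 CPM in PLA4B. The other 8 genes named by rank on this side, Fshb, Chl1, Ankrd35, Fhl1, Clec2e, Npy1r, Slc16a6 and Matn2, were 3.21- to 30.6-fold lower in PL1 and 2.47- to 5.53-fold lower in PLA4.

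Some of the strongest differences belonged to one line. Genes named by rank here were over 2-fold apart in that line and at most 1.24-fold apart in the other. Over all genes measured, 1178 (6.32%) were higher and 724 (3.88%) lower in PL1 only, and 1240 (6.65%) were higher and 929 (4.98%) lower in PLA4 only. Those higher in PL1B only included genes of connective tissue and mucosal defence. Col5a2, a fibrillar collagen chain, held 92.6 CPM in PL1B against 0.449 CPM in PL1A, while PLA4 held the high level in both libraries, 102 CPM in PLA4A and 91.5 CPM in PLA4B. Olfm4, a secreted glycoprotein of epithelial crypts, held 266 CPM in PL1B against 5.28 CPM in PL1A, beside 4.95 CPM in PLA4A and 6.15 CPM in PLA4B. Cemip, which takes part in hyaluronan breakdown, held 46.7 CPM in PL1B against 0.886 CPM in PL1A, beside 4.03 CPM in PLA4A and 3.36 CPM in PLA4B. Fgf7, the keratinocyte growth factor, held 7.74 CPM in PL1B against 3 counts in PL1A, a 224-fold ratio with a 95% exact interval of 76.5 to 1089, and was at or under 3 counts in both PLA4 libraries.

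Genes lower in PL1B only included Tgfbi, a matrix protein induced by TGF-beta, with 53.8 CPM in PL1B against 641 CPM in PL1A, beside 1242 CPM in PLA4A and 1249 CPM in PLA4B. Smoc2, a matricellular protein, held 3.99 CPM in PL1B against 53.9 CPM in PL1A, beside 64.1 CPM in PLA4A and 55.4 CPM in PLA4B. The metalloprotease inhibitor gene Timp1 held 26.5 CPM in PL1B against 161 CPM in PL1A, beside 68.8 CPM in PLA4A and 60.0 CPM in PLA4B. Sulf1, which removes sulfate from heparan sulfate, held 27.8 CPM in PL1B against 197 CPM in PL1A, beside 215 CPM in PLA4A and 268 CPM in PLA4B. In the TGF-beta response list as a whole, 5 of 23 genes were higher and 8 lower in PL1B, 4 were higher and none lower in PLA4A, and 3 were higher in both, against 13.0% and 6.32%, 12.7% and 8.05%, and 4.84% of all genes. Scaled by total counts 5 were lower in PL1B, and in deposited TPM 2 were higher and 6 lower there. Inhba, which encodes the activin A subunit, lay on opposite sides of 0, with 61.7 CPM in PL1B against 614 CPM in PL1A and 614 CPM in PLA4A against 309 CPM in PLA4B.

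In PLA4 the genes apart in that line only included the keratins of simple epithelium. Krt7 held 1598 CPM in PLA4A against 49.0 CPM in PLA4B, beside 519 CPM in PL1B and 572 CPM in PL1A. Krt8 held 1686 CPM in PLA4A against 56.2 CPM in PLA4B, beside 225 CPM in PL1B and 296 CPM in PL1A, and was named after its values were seen, as were Krt18 and Krt19. Its partner Krt18 held 406 CPM in PLA4A against 17.4 CPM in PLA4B, beside 44.9 CPM in PL1B and 38.9 CPM in PL1A. These 3 keratins were lowest in PLA4B among the 8 libraries. Krt19 was over 2-fold higher in both lines, with 78.2 CPM in PLA4A against 0.928 CPM in PLA4B but 0.917 CPM in PL1B against 0.357 CPM in PL1A. All 4 keratins were higher still in PL12 and, for Krt7, Krt18 and Krt19, in PLA. Parvb, an actin-linked focal adhesion protein, held 36.9 CPM in PLA4A against 0.277 CPM in PLA4B, beside 12.8 CPM in PL1B and 12.7 CPM in PL1A.

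Meis2, a homeobox cofactor, was lower in PLA4A, with 0.170 CPM in PLA4A against 30.5 CPM in PLA4B, 179-fold, beside 14.6 CPM in PL1B and 12.9 CPM in PL1A. Sprr2a1, a cornified envelope protein from a cluster of close copies, held 0.612 CPM in PLA4A against 10 CPM in PLA4B, beside 0.608 CPM in PL1B and 0.621 CPM in PL1A. Raet1e, a ligand of the activating receptor NKG2D, held 1.18 CPM in PLA4A against 10.5 CPM in PLA4B, beside 12.9 CPM in PL1B and 14.4 CPM in PL1A. Among 26 measured genes of the cornified envelope and squamous differentiation, 6 were higher and 1 lower in PL1B, 5 were higher and 6 lower in PLA4A, and 1, Krt13, was higher in both, against 13.0% and 6.32%, 12.7% and 8.05%, and 4.84% of all genes.

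The largest opposite differences included the monocyte chemokines. Ccl2 held 46.0 CPM in PL1B against 4.96 CPM in PL1A, and 0.240 CPM in PLA4A against 53.1 CPM in PLA4B. Its neighbour Ccl7 held 19.2 CPM in PL1B against 0.587 CPM in PL1A and 0.224 CPM in PLA4A against 19.3 CPM in PLA4B. Gpnmb, a transmembrane glycoprotein of lysosome-rich cells, held 574 CPM in PL1B against 3.72 CPM in PL1A and 32.5 CPM in PLA4A against 351 CPM in PLA4B. These 3 genes were high in PL1B and PLA4B. In the other direction Amtn, the enamel protein amelotin, held 0.644 CPM in PL1B against 40 CPM in PL1A and 12.8 CPM in PLA4A against 2.24 CPM in PLA4B, and Cyp1b1, a xenobiotic-oxidising enzyme, held 11.4 CPM in PL1B against 40.3 CPM in PL1A and 79.0 CPM in PLA4A against 10.9 CPM in PLA4B.

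In the remaining lists the count of members higher in both stands against 4.84% of all genes. Counts in 1 line stand against 13.0% higher and 6.32% lower in PL1B, and 12.7% and 8.05% in PLA4A. Of 32 ERK feedback and immediate early genes, 12 were higher in PL1B, 11 were higher and 2 lower in PLA4A, and 5 were higher in both, Atf3, Dusp4, Spry1, Spry4 and Epgn. Spry4 had 3 counts in PLA4A, the floor, against 0 in PLA4B, and Epgn was under 0.35 CPM in all 4 libraries. The immediate early factor Egr1 held 242 CPM in PL1B against 129 CPM in PL1A and 18.3 CPM in PLA4A against 169 CPM in PLA4B. Of 30 ATF4 targets and amino acid genes, 8 were higher in PL1, 2 were higher and 3 lower in PLA4, and 2, the stress regulators Nupr1 and Trib3, were higher in both. Nupr1 held 143 CPM in PL1B against 20.1 CPM in PL1A and 484 CPM in PLA4A against 23.3 CPM in PLA4B. Of 26 NRF2 targets 2 were higher in both, Nqo1 and Gclc. Gclc, which encodes a glutathione synthesis enzyme, held 324 CPM in PL1B against 72.0 CPM in PL1A and 139 CPM in PLA4A against 36.9 CPM in PLA4B.

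Endoplasmic reticulum chaperones (22 genes), p53 targets (24), fatty acid synthesis (13) and lysosome genes (26) had 1 member each that was higher in both, and YAP and TEAD targets (20), Wnt and Notch genes (20) and replication-dependent histones (22) had 2 each. These were Herpud1, Gdf15, Scd1, Ctsz, Ccn2 and Ankrd1, Apcdd1 and Notch3, and H1f3 and H1f4. Scd1, which desaturates fatty acids, held 11.5 CPM in PL1B against 0.173 CPM in PL1A and 385 CPM in PLA4A against 143 CPM in PLA4B. The YAP target Ccn2 held 109 CPM in PL1B against 44.7 CPM in PL1A and 99.1 CPM in PLA4A against 5.12 CPM in PLA4B. Hypoxia targets (31), cholesterol genes (24), heat shock genes (16), metallothioneins (4), subunits of oxidative phosphorylation (33), mitochondrially encoded genes (13) and cytosolic ribosomal proteins (46) had none that was over 2-fold the same way in both. Among 25 basal squamous genes, Krt15 was higher in both, with 142 CPM in PL1B against 18.5 CPM in PL1A and 134 CPM in PLA4A against 37.0 CPM in PLA4B, and Krt16 was lower in both. Of the 22 histone genes, 3 were over 2-fold higher and 2 lower in PL1B, against 13.0% and 6.32% of all genes. In PLA4A 11 were higher, against 12.7%, and in PL12B 4, against 6.17%. In HHPLAB 3 were higher and 1 lower, against 2.24% and 1.88%. In deposited TPM 4 were higher in PLA4A and 0 in PL1B. Of the 22, 10 were under 1 CPM in all 8 libraries.

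**Figure D4:**
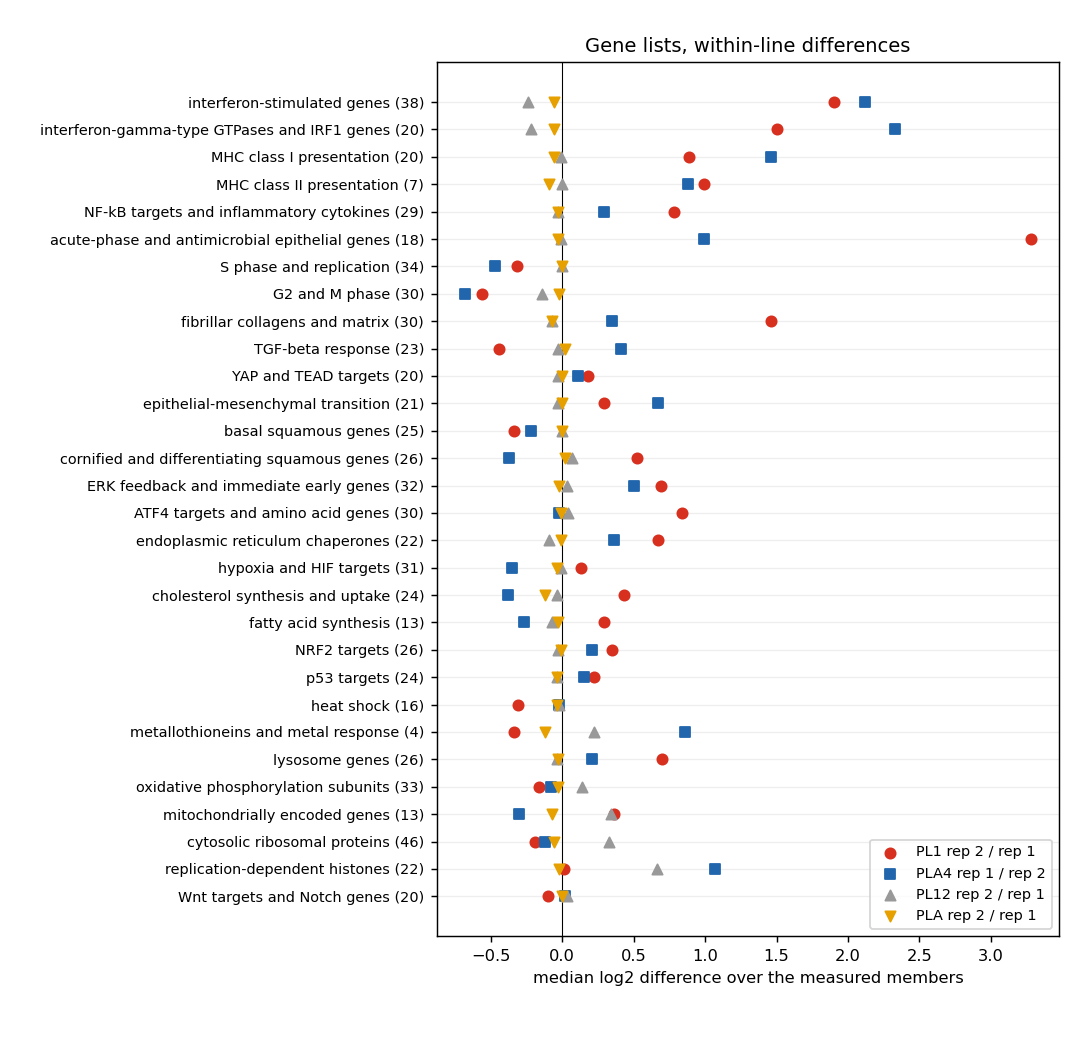
Median log2 difference over the measured members (number in brackets) of 30 gene lists, for the libraries of PL1, PLA4, PL12 and PLA. The interferon and MHC lists lie at 0.88 to 2.33 in both PL1 and PLA4. The 2 cell cycle lists lie below 0 in both, as do the basal squamous, heat shock, oxidative phosphorylation and ribosomal protein lists. PL12 and PLA lie near 0 for most lists.

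In the background lines the members were not a set that stood apart together. Of the 903 genes higher in both, 75 were over 2-fold higher and 42 lower in PL12B, together 13.0% against 8.80% of all genes measured, and 27 were higher and 31 lower in HHPLAB, 6.42% against 4.12%. Their median differences were -0.04 in PL12 and 0 in PLA. Of the 224 lower in both, 23.2% were over 2-fold apart in PL12 and 13.4% in PLA, at a median level of 0.443 CPM. Of the genes higher in both, 47.3% reached 1 CPM in both PL12 libraries and 50.4% in both PLA libraries, against 65.4% and 66.4% of all genes measured. For genes lower in both these shares were 19.2% and 17.9%.

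Differences were spread over the genome unevenly in PLA4. Among genes with at least 5 CPM, the median log2 difference per chromosome ran from -0.35 on chromosome 6 to 0.45 on chromosome 15 in PLA4, with -0.32 on chromosome 17, -0.29 on chromosome 8, -0.28 on chromosome 19, -0.27 on chromosome 5 and 0.23 on chromosome 13. In PL1 it ran from -0.17 on chromosome 13 to 0.07 on chromosome 2, in PL12 from -0.12 to 0.03, and in PLA from -0.01 to 0. On chromosome 15, the highest in PLA4, PL1 stood at -0.13, and 1.64% of genes were higher in both. Genes higher in both made up 0.980% of genes on chromosome 13 to 3.43% on chromosome 19. Whether copy number differed between the PLA4 libraries was not tested.

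**Figure D5:**
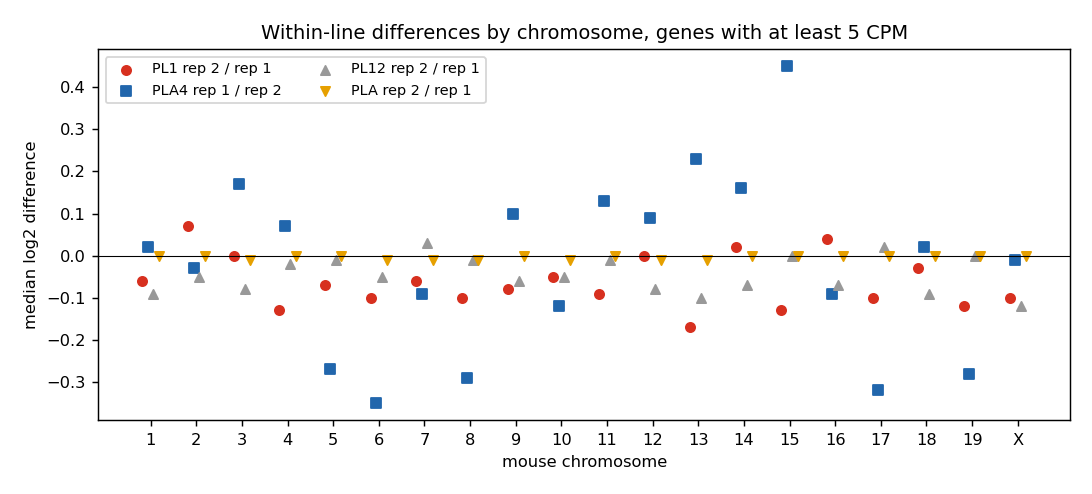
Median log2 difference between the libraries of each line, by chromosome, over genes whose mean in the PL1 and PLA4 libraries reached 5 CPM. PLA4 spreads from -0.35 to 0.45, PL1 from -0.17 to 0.07, and PL12 and PLA stay closer to 0.

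Library features that could move with these sides were compared. The mean fragment length estimated from the ratio of deposited counts to TPM was 172 bases in PL1B and 171 in PL1A, 163 in PLA4A and 179 in PLA4B, and 171 in PL12B against 268 in PL12A. Among genes with at least 5 CPM, in 3 equal classes of transcript length, 2.34% of the shortest, 1.86% of the middle and 1.71% of the longest genes were higher in both. The 50 most abundant genes took 11.8% of counts in PL1B against 13.8% in PL1A, and 15.2% in PLA4A against 14.6% in PLA4B. Scaling by total counts alone would move the median difference over all genes by 0.12 in PL1 and by -0.04 in PLA4, on the log2 scale. The libraries carry no date or lane in the labels, so a batch and the sides of each line cannot be told apart.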

How the data were processed

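RNA-seq libraries of 4 mouse tumour lines, 2 each, were analysed from gene-level expected counts and TPM, both made by the authors with RSEM as per the file headers and deposited without pooling. The submitters' processing notes name FastQC, STAR, RSEM, DESeq2 and GRCm38. The annotation release was not given in the sources used here. Of the expected counts deposited by the authors, 14.2% were not whole and were rounded. Counts of 55487 genes were filtered with filterByExpr of edgeR 4.0.16 (line as group, minimum count 10, minimum total 15), which kept 18648, and scaled by TMM over 8 libraries in R 4.3.3. Genes were placed with GENCODE M21 (55141 identifiers matched) and promoters taken from RefSeq.

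The difference within a line was log2 CPM, with a prior count of 2, of one library minus the other, past 2-fold or not. Since each side of a line is 1 library, chosen from its own values, no p-value was computed. Folds are ratios of CPM. Those with 1 to 3 counts in the lower library have 95% exact binomial intervals, and those with 0 are bounds against 3 counts. Reads are not deduplicated molecules as far as the sources say, so these cover counting error only. The deposited TPM, used as an alternative, had 1 added before log2. The sorting of genes into classes was checked on simulated counts. The changes planted there were larger than 2-fold and in genes with at least 5 CPM, so recovery at low counts was not checked.

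The members and the gene lists were chosen with earlier results of these data known. Genes named are the 15 largest shared differences in each direction by the smaller of the 2 lines, up to 4 shared members of each list plus those needed to describe it, the 6 largest in each line and direction among genes within 1.25-fold in the other line, the 4 largest in each opposite direction, and the line checks. Rank-based names needed at least 5 CPM in the higher library and a plain symbol. Gm4070, Col4a1 and the level genes were named for description. Near-identical copies (Ifit3 and Ifit3b, Tgtp1 and Tgtp2, H2-Q6 and H2-Q7, the Gbp, Oas1 and Sprr2 genes) are uncertain, since the counting could split their reads. Individual values of some genes in the lists are not reported here.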

Additional observations from a re-analysis of the deposited data

How the results depend on the processing

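No paired analysis was possible because the results come from no test: the side of each library was chosen from the values that a fit with line as a block would test, and every difference is already taken within a line. Leaving out a replicate leaves no pair and gave no value. Of 176 alternative values under 12 settings, 110 stayed within 1.5 times the value reported. DESeq2 size factors, total counts, TMM from the 4 libraries and thinning to the shallowest library moved no count by more than that. The counts reported were 903 higher and 224 lower in both, 1902 in PL1 only, 2169 in PLA4 only, 578 opposite, 106 list members shared, and 3607, 3874, 1641 and 768 past 2-fold within PL1, PLA4, PL12 and PLA.

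Without a filter, PL1 only had 3446, PLA4 only 3576, PL1 5656, PL12 4036 and PLA 2011. At a mean of at least 5 CPM there were 207 higher and 41 lower in both, 512 in PL1 only, 650 in PLA4 only, 107 opposite, 53 list members, and 867 in PL1, 1005 in PLA4, 56 in PL12 and 11 in PLA. A prior count of 0.5 gave 1289 in PLA. A prior count of 10 gave 134 lower in both, 288 opposite, 576 in PL12 and 135 in PLA. At 1.5-fold there were 1577 higher and 608 lower in both, 1476 opposite, 160 list members, and 6318 in PL1, 6868 in PLA4, 3120 in PL12 and 1926 in PLA. At 4-fold there were 317 higher and 24 lower in both, 925 in PL1 only, 983 in PLA4 only, 91 opposite, 41 list members, and 1357 in PL1, 1415 in PLA4, 387 in PL12 and 110 in PLA. Deposited TPM gave 229 higher and 36 lower in both, 785 in PL1 only, 978 in PLA4 only, 89 opposite, 54 list members, and 1139 in PL1, 1332 in PLA4, 202 in PL12 and 66 in PLA. Requiring the other line to be close to level, by the bound used for naming genes, left 753 in PL1 only and 876 in PLA4 only. A wider or narrower fold threshold moves these counts by construction. At a mean of at least 5 CPM fewer genes were tested, but the share called also fell. It went from 13.0% to 5.07% higher in PL1B and from 6.17% to 0.390% higher in PL12B. Why the filter, prior count and TPM settings moved the counts was not tested.

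Of the 903 genes higher in both, 902 were also found with DESeq2 size factors, 888 with total counts, 713 after thinning, 604 with a prior count of 10 and 223 in TPM. Of the 62 genes named by rank, 50 were measured at a mean of 5 CPM and all 62 under the other settings, and none changed sign in a line where it was past 2-fold; 49 stayed in their class at 4-fold and 60 in TPM. Low counts limit the members, whose median level was 1.44 CPM when higher in both and 0.443 CPM when lower in both.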
